A study of Mus musculus with 36 samples.

Results

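Genes of the interferon gamma response and of class I antigen processing were followed in intact bone and fracture callus. The mice compared either have mature T and B cells or lack them. The set holds 9 genes, and its members are the array probes whose annotated symbol is Irf1, Psmb8, Psmb9, Tap1, Tap2, B2m, H2-K1, H2-D1 or Ubd. Of the 9 genes, 8 had a probe and 7 had a probe bright enough to be tested, out of 10291 tested genes and 18138 genes on the array. H2-D1 had no probe under that symbol, and the H2-K1 probe was too dim to test.

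Interferon gamma is a cytokine released mainly by T cells and natural killer (NK) cells. Signalling from its receptor and the kinases Jak1 and Jak2 switches on Irf1, a transcription factor of many interferon-induced genes. Among these are the proteins that prepare peptides for display to cytotoxic T cells: the immunoproteasome cuts proteins into peptides, the Tap transporter carries the peptides into the endoplasmic reticulum, and class I heavy chains hold them at the cell surface together with beta-2 microglobulin.

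RNA was taken from the femora of male C57BL/6N mice. They were either wild type (WT) or homozygous for a knockout of the recombination activating gene 1 (RAG1-/-). RAG1-/- mice cannot rearrange antigen receptor genes. Their age is given as 8 weeks for both genotypes, without saying whether at fracture or at collection. Intact bone is called D0, and callus with the adjoining bone was collected 3 (D3), 7 (D7), 14 (D14), 21 (D21) and 28 (D28) days from fracture. For each of the 12 combinations of genotype and day, RNA of 5 mice was pooled and the pool was put on 3 Illumina MouseRef-8 v2 arrays, 36 in all. All values are log2 intensities after quantile normalization. Because arrays of a pool repeat the same RNA, p-values of single days cover array-to-array spread and not the spread between mice. A pool of whole bone or callus mixes many cell types, and fewer cells of a type cannot be told apart from less RNA per cell.

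Some arrays stood apart before any comparison was made. The 6 WT arrays of D3 and D7 scored 81.8 to 88.0 on the first principal component (38.5% of the variance), against −33.9 to 15.2 for the other 30. Arrays of a group correlated at 0.885 to 0.994 in WT and at 0.983 to 0.995 in RAG1-/-. Among the WT D14 arrays, replicates 2 and 3 were closer to RAG1-/- D21 (r up to 0.984) than to their own replicate 1 (0.950 and 0.948). Replicate 1 was also slightly closer to RAG1-/- D21 (r up to 0.951) than to replicates 2 and 3. The D14 differences that replicates 2 and 3 move most are also given without them, which leaves 1 WT array. The probe of Rag1, the deleted gene, had group means of 4.49 to 5.42 in WT and 4.55 to 4.77 in RAG1-/-, which separates no group, and the sources used here do not say which part of the gene it reads. Erythroid markers were mostly lower in RAG1-/-: over 6 tested markers and 6 days, 30 of 36 comparisons passed as lower and 0 as higher, but only 2 of 6 at D14. Over all tested genes and the 6 days, 12.3% of comparisons passed as lower and 17.2% as higher. At D14 the mean over 7 markers was 7.13 to 9.47 in WT arrays and 7.33 to 7.40 in RAG1-/- arrays, which overlapped, and on the other days the lowest WT array (8.56) was above the highest RAG1-/- array (6.97).

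Sequence before the transcription start was available from RefSeq (GRCm38.p6) for 8 of the 9 genes, all but Tap2. The stretches shown belong to genes that differed between the genotypes, and were searched for the letters by which interferon-activated factors are usually found. Capitals mark TTCNNNGAA, the core of the gamma-activated site, and AANNGAAA, the core read by interferon regulatory factors, both searched on both strands, and no match of the one overlapped the other. Each run ends at the base before the start of the named gene, except that Psmb9 and Tap1 are transcribed away from each other and share the 225 bases between them, shown here on the strand of Tap1.
Irf1, chr11:53769764-53770013, plus strand: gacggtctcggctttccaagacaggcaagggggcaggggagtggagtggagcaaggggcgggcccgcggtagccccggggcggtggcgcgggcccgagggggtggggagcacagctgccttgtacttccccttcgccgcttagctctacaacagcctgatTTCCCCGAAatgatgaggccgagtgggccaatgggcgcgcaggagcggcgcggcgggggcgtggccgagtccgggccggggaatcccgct
Psmb8, chr17:34197945-34198194, plus strand: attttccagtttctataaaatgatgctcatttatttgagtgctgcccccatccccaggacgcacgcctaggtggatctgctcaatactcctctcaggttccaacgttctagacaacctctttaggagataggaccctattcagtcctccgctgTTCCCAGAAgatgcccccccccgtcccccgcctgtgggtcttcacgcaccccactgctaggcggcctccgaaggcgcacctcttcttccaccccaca
Psmb9 to Tap1, chr17:34187331-34187555, plus strand: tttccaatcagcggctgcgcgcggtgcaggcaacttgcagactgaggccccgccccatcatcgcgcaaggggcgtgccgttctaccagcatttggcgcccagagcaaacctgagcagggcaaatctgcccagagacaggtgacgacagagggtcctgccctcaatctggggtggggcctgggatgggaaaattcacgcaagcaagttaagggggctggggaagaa
B2m, chr2:122147437-122147686, plus strand: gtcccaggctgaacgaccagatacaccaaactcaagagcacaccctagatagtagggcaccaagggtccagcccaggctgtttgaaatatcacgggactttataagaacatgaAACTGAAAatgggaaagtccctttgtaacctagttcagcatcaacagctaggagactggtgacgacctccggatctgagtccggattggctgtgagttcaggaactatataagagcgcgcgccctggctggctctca
Ubd, chr17:37193642-37193891, plus strand: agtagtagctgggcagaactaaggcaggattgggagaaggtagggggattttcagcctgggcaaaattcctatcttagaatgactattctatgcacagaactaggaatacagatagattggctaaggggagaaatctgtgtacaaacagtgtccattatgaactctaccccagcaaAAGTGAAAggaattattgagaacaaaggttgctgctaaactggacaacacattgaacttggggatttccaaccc
Irf1 has 2 listed starts, of which the stretch before the first is shown, and the stretch before the other held neither motif. The stretches shown for Irf1 and Psmb8 each held a gamma-activated core, TTCCCCGAA from 90 to 82 bases before the start of Irf1 and TTCCCAGAA from 97 to 89 bases before that of Psmb8. B2m held the regulatory factor core AACTGAAA from 137 to 130 bases before its start, and Ubd held AAGTGAAA from 74 to 67. Neither motif was in the stretch shared by Psmb9 and Tap1. Of all 32851 windows of 250 bases in the same table, 7.02% held the gamma-activated core and 21.3% the regulatory factor core. In windows of 225 bases these shares were 6.23% and 19.2%. The palindromic kappaB element known from class I heavy chain promoters, 11 fixed letters, was also searched on both strands and was in 0.0304% of windows of either length. It was in none of the stretches shown but lay before H2-K1, from 111 to 101 bases before its first listed start, and before H2-D1, from 171 to 161. Both of these also held a regulatory factor core on the opposite strand, from 90 to 83 and from 150 to 143 bases before the start.

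Genotypes were first compared day by day, to ask whether the set differs where mature T and B cells are missing. Tap2 was lower in RAG1-/- on all 6 days, Irf1 was lower at D3 and D7 by its brightest probe, Psmb9 was lower at D3 and Psmb8 at D21, B2m was higher at D3 and D7, Ubd was lower at D0, and Tap1 was higher at D7 and D28. A member was called at an adjusted p under 0.05 in limma over all 10291 genes. Called members numbered 2 of 7 at D0, where 20.2% of all genes were called, 4 of 7 at D3 (49.6% of all genes) and 4 of 7 at D7 (48.5%). There were 1 of 7 at D14 (4.65%), 2 of 7 at D21 (24.6%) and 2 of 7 at D28 (29.4%). These shares lie near those of all genes, so the counts are not a result about the set, and the genes are described singly. The median difference over the 7 members was −0.24 at D0, −0.85 at D3, −0.91 at D7, −0.02 at D14, −0.04 at D21 and 0.09 at D28, beside medians over all genes of 0.05, −0.05, −0.01, −0.00, 0.03 and 0.08.

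**Figure D1:**
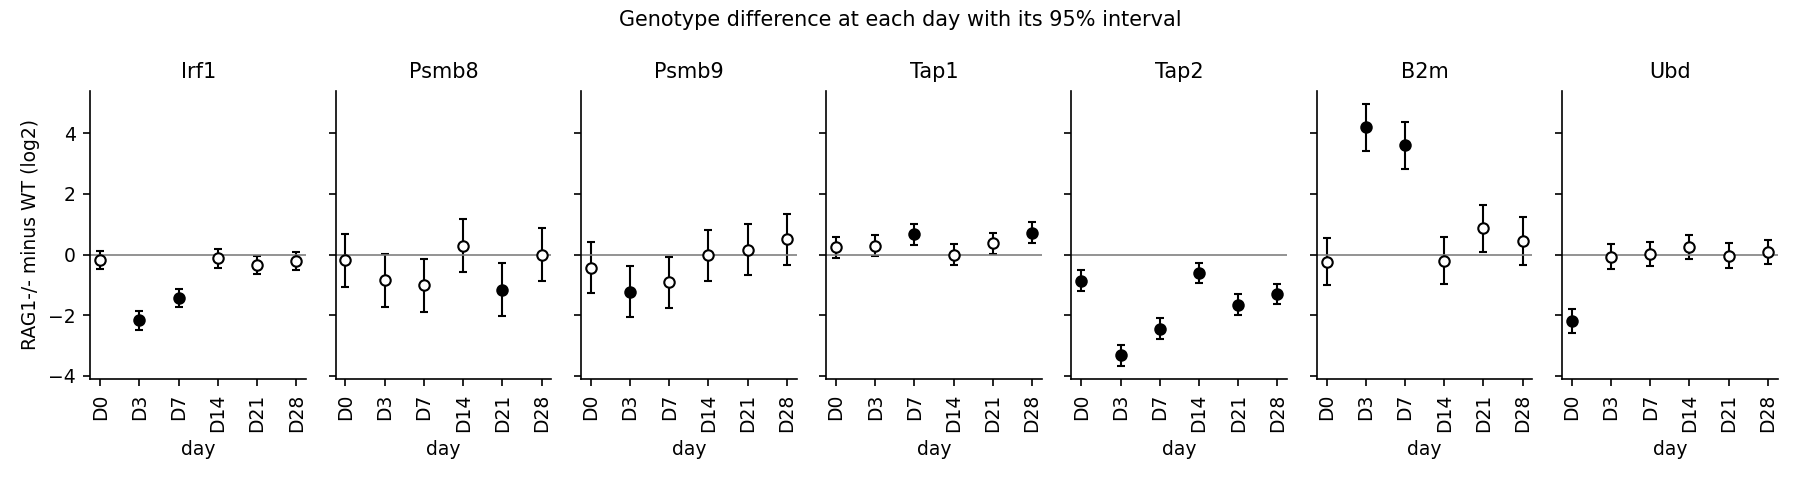
Difference RAG1-/- minus WT in log2 intensity (vertical axis) at each day (horizontal axis) for the 7 tested members, with 95% intervals from the limma fit. Filled points passed at an adjusted p under 0.05. Tap2 is below 0 with a filled point on all 6 days, while the B2m points at D3 and D7, 4.20 and 3.60, go the other way.

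Irf1, the transcription factor at the head of the response, was higher in WT than in RAG1-/- at D3 and D7 by its brightest probe. At D0 its WT arrays read 9.63, 9.25 and 9.57 and its RAG1-/- arrays 9.41, 9.22 and 9.28. At D3 the WT arrays read 10.98, 10.91 and 10.97 and the RAG1-/- arrays 8.67, 8.83 and 8.83. At D7 the WT arrays read 10.83, 10.87 and 10.65 and the RAG1-/- arrays 9.34, 9.27 and 9.42. The genotypes overlapped in intact bone and were far apart on both early days. From D14 to D28 they overlapped again, with WT arrays between 9.12 and 9.82 over these days and RAG1-/- arrays between 9.11 and 9.35. The D14 difference was −0.13 and did not pass, and without WT replicates 2 and 3 it was −0.39, resting on 1 WT array. The difference was −2.17 ± 0.15 at D3 (SE, 3 arrays per group, adjusted p = 8.71e-13 in limma), a 4.51-fold lower intensity, and −1.44 ± 0.15 at D7 (adjusted p = 4.16e-09), 2.71-fold lower. At D21 (−0.34, adjusted p = 0.0980) and D28 (−0.22, adjusted p = 0.284) it did not pass. With each array centred on its median both did, at −0.43 and −0.46, but centring lowered the difference of every gene, by 0.09 at D21 and 0.24 at D28.

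The 2 tested probes of Irf1 did not tell the same story. The second brightest probe read 7.52, 7.62 and 7.55 in WT at D3 and 7.35, 7.52 and 7.45 in RAG1-/-. At D7 it read 8.23, 7.75 and 7.47 in WT and 7.97, 7.95 and 7.87 in RAG1-/-. This probe therefore showed no early rise in WT, and its differences of −0.12 at D3 (adjusted p = 0.610) and 0.11 at D7 (adjusted p = 0.660) did not pass. The other 3 probes of Irf1 were too dim to test, with arrays between 4.23 and 5.25. Among all genes with 2 tested probes that both passed at D3, the pair went in opposite directions in 24.5%, and in 23.8% at D7 and 0% at D14. The sources used here do not say which transcripts each Irf1 probe reads.

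**Figure D2:**
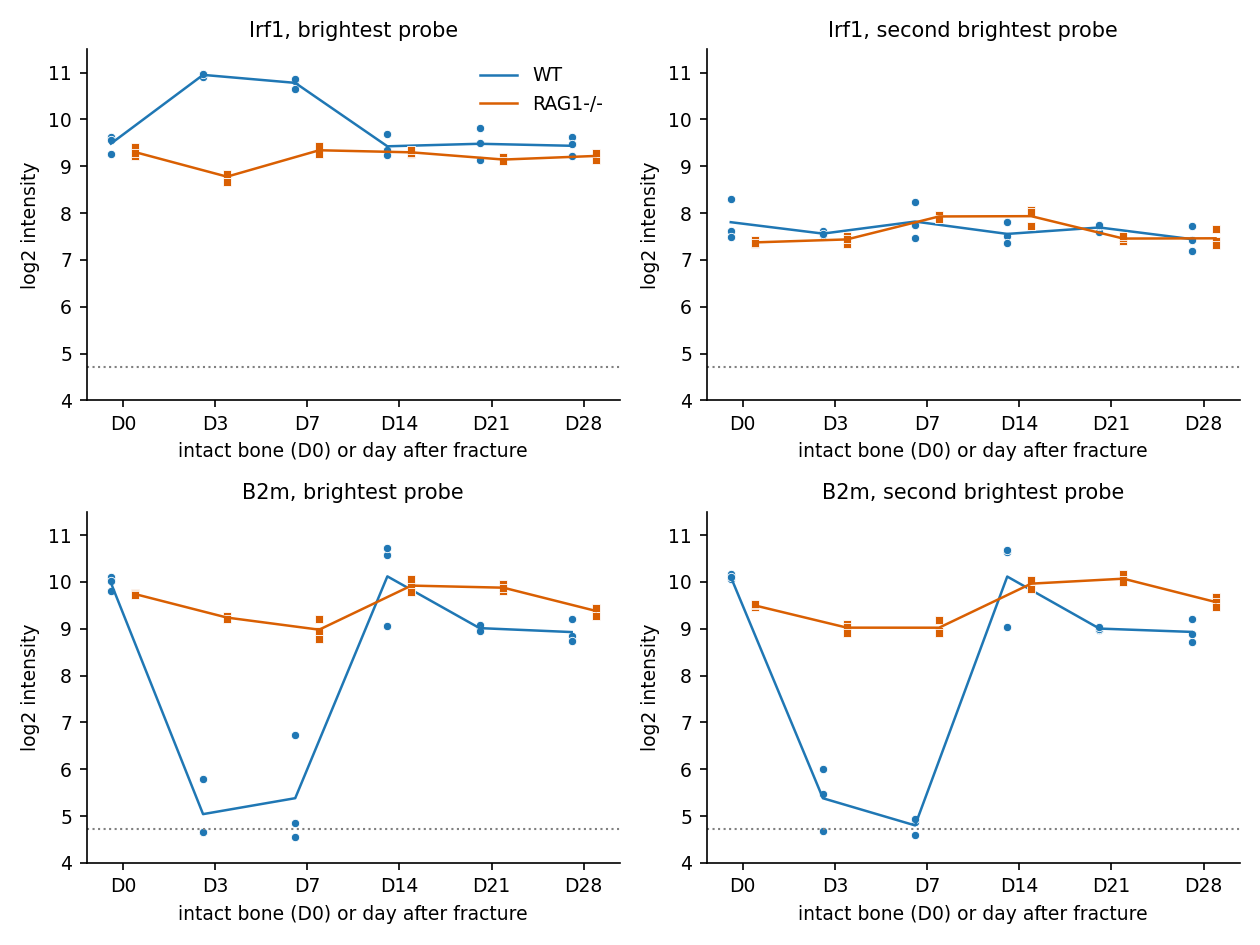
Log2 intensity (vertical axis) of the 2 tested probes of Irf1 and of B2m by day (horizontal axis) in WT (circles) and RAG1-/- (squares), with a point per array and a line through the means of 3 arrays. The dotted line is the median of all probes, 4.72. The brightest Irf1 probe peaks in WT at 10.95 at D3 where the second brightest reads 7.56, while both B2m probes drop together in WT at D3 and D7.

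Psmb8 and Psmb9 encode catalytic subunits that replace constitutive ones in the immunoproteasome. Psmb9 read 7.36, 6.51 and 6.77 in WT at D3 and 5.09, 5.96 and 5.90 in RAG1-/-. At D7 its WT arrays read 6.97, 6.61 and 7.51 and its RAG1-/- arrays 5.93, 6.22 and 6.19. All RAG1-/- arrays were below all WT arrays on both days. Arrays of the genotypes did not overlap, in either direction, for 55.5% of all tested genes at D3 and for 54.4% at D7. The difference was −1.23 ± 0.41 at D3 (adjusted p = 0.0138 in limma) and −0.91 ± 0.41 at D7, which did not pass (adjusted p = 0.0677). At D0, D14, D21 and D28 the genotypes overlapped, and in WT at D28 the arrays spread from 4.64 to 6.94. The D3 call was lost without WT replicate 1 (−0.99, adjusted p = 0.0745) or without RAG1-/- replicate 1 (−0.95, adjusted p = 0.0888). Centring each array on its median over the tested probes lowered the difference of every gene by 0.25 at D3, 0.29 at D7 and 0.24 at D28. The D7 difference of Psmb9 was then −1.21 and passed (adjusted p = 0.0152 in limma). Before centring, the median difference over all genes was −0.05 at D3 and −0.01 at D7. Lower calls gained by centring thus come with a downward shift of all genes.

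Psmb8 was measured with a spread too wide for most comparisons. In WT its arrays read 6.66, 4.67 and 5.64 at D3 and 6.56, 4.68 and 6.29 at D7, with replicate 2 low on both days. RAG1-/- arrays read 4.84, 4.97 and 4.60 at D3 and 5.01, 4.89 and 4.59 at D7. At D21 the WT arrays read 6.37, 6.29 and 5.69 and the RAG1-/- arrays 5.02, 4.48 and 5.38, without overlap. Only the D21 difference passed, at −1.16 ± 0.43 (adjusted p = 0.0483 in limma), while those at D3 (−0.85, adjusted p = 0.0998) and D7 (−1.01, adjusted p = 0.0521) did not. Leaving out WT replicate 2 moved the D7 difference to −1.60 (adjusted p = 0.00256) and the D3 difference to −1.35 (adjusted p = 0.0127). Both passed as well with each array centred on its median, at −1.31 and −1.10, a step that lowered the difference of every gene on these days. The D21 call was lost without WT replicate 1, WT replicate 2, RAG1-/- replicate 1 or RAG1-/- replicate 2, with adjusted p of 0.0959 to 0.199, and without WT replicates 2 and 3 of D14 (adjusted p = 0.0577).

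The constitutive subunits that Psmb8, Psmb9 and Psmb10 replace were higher in RAG1-/- at D3. Psmb5, Psmb6 and Psmb7 differed by 2.79, 1.64 and 0.65 at D3, and Psmb6 was higher at D7 by 1.68 too. Psmb5 was also higher at D0 (1.42) and Psmb6 at D28 (0.40), and Psmb7 was lower at D21 (−0.72). Over the 3 genes and 6 days, 33.3% of comparisons passed as higher and 5.56% as lower, where 17.2% and 12.3% did over all tested genes. Psmb10, the third inducible subunit, was lower in RAG1-/- at D3 (−1.66), with group means of 10.11 in WT and 8.45 in RAG1-/-. It was also lower at D7 (−1.12) and D21 (−0.70). Of the proteasome activator subunits, Psme2 was higher in RAG1-/- at D3 (1.45) and D7 (1.40), and Psme1 passed on no day, with differences between −0.39 and 0.16.

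Tap1 and Tap2 encode the subunits of the peptide transporter, which work only together. Tap2 was lower in RAG1-/- on every day, with no overlap of arrays on any. No second probe on the array carried the Tap2 symbol, so these differences could not be compared between probes. In intact bone the WT arrays read 8.51, 8.64 and 8.81 and the RAG1-/- arrays 7.76, 7.86 and 7.75. At D3 the WT arrays read 9.49, 9.64 and 9.46 and the RAG1-/- arrays 6.33, 6.25 and 6.04. At D7 they read 9.69, 9.66 and 9.99 in WT and 7.41, 7.36 and 7.23 in RAG1-/-. The gap was thus widest in the early callus, where WT was at its highest and RAG1-/- at D3 at its lowest. At D14 the WT arrays read 8.21, 7.70 and 7.74 and the RAG1-/- arrays 7.15, 7.40 and 7.28. At D21 they read 8.16, 8.64 and 8.81 in WT and 6.91, 6.64 and 7.08 in RAG1-/-. At D28 they read 8.49, 8.14 and 8.47 in WT and 6.90, 7.26 and 7.04 in RAG1-/-. The narrowest gap was at D14, between the RAG1-/- array at 7.40 and the WT array at 7.70.

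The difference in Tap2 was −0.86 ± 0.17 at D0 (SE, adjusted p = 0.000332 in limma), −3.33 at D3 (adjusted p = 1.3e-15), −2.44 at D7 (adjusted p = 1.37e-12), −0.61 at D14 (adjusted p = 0.0306), −1.66 at D21 (adjusted p = 3.26e-08) and −1.30 at D28 (adjusted p = 1.26e-06). As intensities these are 1.82-fold lower at D0, 10.05-fold at D3, 5.44-fold at D7, 1.52-fold at D14, 3.16-fold at D21 and 2.47-fold at D28. Arrays of a genotype lay entirely on the one side of the other for 44.2% of all genes at D0, 24.1% at D14, 45.7% at D21 and 42.2% at D28. Without WT replicates 2 and 3 the D14 difference was −0.93, resting on 1 WT array, and without WT replicate 1 it was −0.44 and no longer called (adjusted p = 0.120). The D14 call was also lost without RAG1-/- replicate 1 (−0.54, adjusted p = 0.154) or replicate 3 (−0.61, adjusted p = 0.0971).

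**Figure D3:**
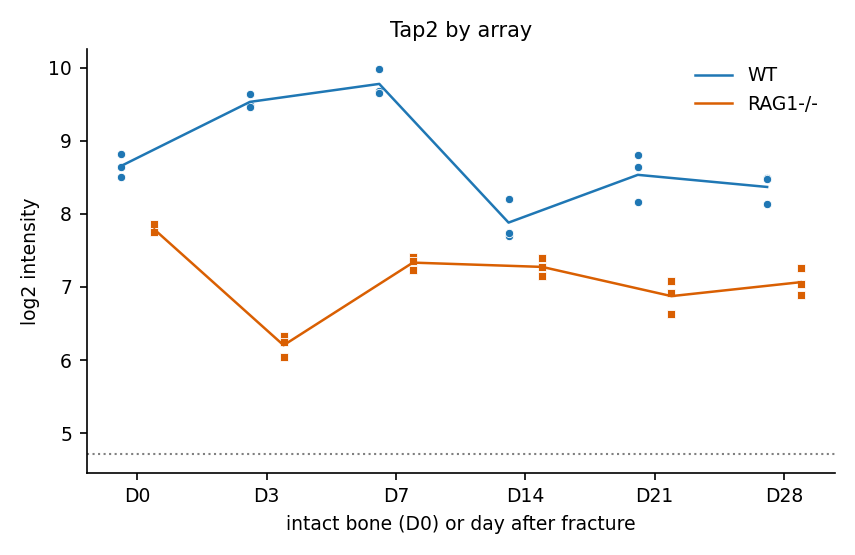
Log2 intensity of Tap2 (vertical axis) by day (horizontal axis) in WT (circles) and RAG1-/- (squares), with a point per array and a line through the means of 3 arrays. WT means run from 7.88 at D14 to 9.78 at D7 and RAG1-/- means from 6.20 at D3 to 7.79 at D0, so that no RAG1-/- mean reaches the lowest WT mean.

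In the order of its 12 group means, all 6 WT groups of Tap2 came before all 6 RAG1-/- groups. WT at D7 (9.78) was above WT at D3 (9.53), and both were above WT at D0 (8.65), without overlap. WT at D0, D21 (8.53), D28 (8.37) and D14 (7.88) overlapped from neighbour to neighbour. The lowest WT group, D14, and the highest RAG1-/- group, D0 (7.79), overlapped as well. RAG1-/- at D7, D14, D28 and D21 followed with overlap, and RAG1-/- at D3 (6.20) stood below them all.

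Tap1 did not follow Tap2. Its WT arrays read 4.26, 4.55 and 4.54 at D7 and its RAG1-/- arrays 4.95, 5.19 and 5.23. At D28 they read 4.56, 4.63 and 4.32 in WT and 5.36, 5.16 and 5.14 in RAG1-/-. RAG1-/- was therefore higher without overlap on both days, at 0.67 ± 0.17 (adjusted p = 0.00163 in limma) and 0.72 ± 0.17 (adjusted p = 0.00183). On all other days the difference lay between −0.00 and 0.38 and did not pass. The Tap1 probe had a mean of 4.74 over all arrays, just above the limit for testing of 4.72, so these are small differences near the floor of the array. That mean would have been below the limit without the RAG1-/- arrays of D7, or without those of D28. The probe was thus tested only through groups that the test then called higher. With each array centred on its median the D7 difference was 0.38 and was no longer called (adjusted p = 0.0589), and the D28 difference was 0.48 (adjusted p = 0.0316). At D14 the difference was −0.00, and 0.38 without WT replicates 2 and 3, resting on 1 WT array. Of 7 tested macrophage markers, 3 were higher in RAG1-/- at D7 and 5 at D28, with 0 lower. Of all genes, 27.2% were higher at D7 and 19.5% at D28. Over the 6 days, 15 of 42 comparisons of these markers (35.7%) passed as higher and 1 (2.38%) as lower, so this was not particular to D7 and D28. Over all tested genes 17.2% passed as higher and 12.3% as lower. The mean over 9 macrophage markers was 4.94 to 5.10 in WT and 5.50 to 5.62 in RAG1-/- at D7, and 5.35 to 5.54 and 6.65 to 6.67 at D28. It was also higher without overlap at D0, D3 and D21, and overlapped at D14. The part of macrophages in the Tap1 values was not tested.

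**Figure D4:**
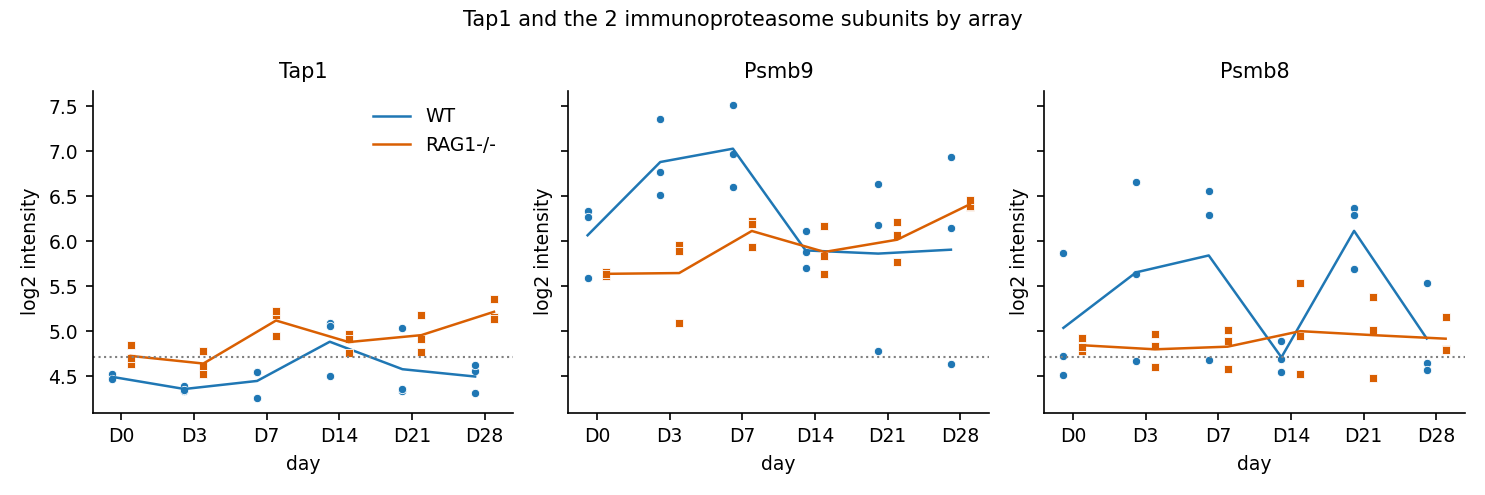
Log2 intensity (vertical axis) of Tap1, Psmb9 and Psmb8 by day (horizontal axis) in WT (circles) and RAG1-/- (squares), with a point per array and a line through the means of 3 arrays. The dotted line is the median of all probes, 4.72. Tap1 stays within 4.26 to 5.36 on all arrays, and the WT arrays of Psmb8 at D3 spread from 4.67 to 6.66.

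Of the chaperones and enzymes that load peptides onto class I molecules, 4 of 6 were tested. Tapbp, the tapasin that ties the Tap transporter to empty class I molecules, was lower in RAG1-/- at D7 (−1.57), D21 (−1.39) and D28 (−1.92). Calr, the chaperone calreticulin, was higher on every day but D28, by up to 2.07 at D0, and Pdia3, the oxidoreductase of the loading complex, was higher at D3 (1.91) and D7 (3.13). Tapbpl, a relative of tapasin that edits peptides, was higher at D7 (0.59) and D28 (0.69). Over the 4 genes and 6 days, 9 comparisons (37.5%) passed as higher and 3 (12.5%) as lower, where 17.2% and 12.3% did over all tested genes.

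B2m, the light chain that all classical class I molecules share, was near the floor of the array in the early WT callus. In intact bone its brightest probe read 10.11, 10.01 and 9.81 in WT and 9.76, 9.74 and 9.72 in RAG1-/-. At D3 it read 5.80, 4.67 and 4.65 in WT and 9.24, 9.26 and 9.21 in RAG1-/-. At D7 it read 4.55, 6.73 and 4.86 in WT and 8.95, 8.79 and 9.20 in RAG1-/-. The lowest early WT arrays thus lay below the median of all probes, 4.72, while no RAG1-/- array of any day was below 8.79. The difference was 4.20 ± 0.38 at D3 (adjusted p = 3.55e-10 in limma) and 3.60 ± 0.38 at D7 (adjusted p = 8.09e-09). Since WT lay close to the floor, the sizes of these differences are limited by it. The second brightest probe gave 3.64 at D3 and 4.22 at D7, with WT arrays between 4.60 and 6.00 and RAG1-/- arrays between 8.91 and 9.19 over both days.

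After D7 the B2m probe was again bright in WT. At D14 the WT arrays read 9.06, 10.57 and 10.73 and the RAG1-/- arrays 9.91, 10.05 and 9.79, with WT replicate 1 below all RAG1-/- arrays and replicates 2 and 3 above them. The D14 difference was −0.20 and did not pass. Without WT replicates 2 and 3 it was 0.86, with the direction turned, but this rests on 1 WT array. At D21 they read 9.02, 9.07 and 8.95 in WT and 9.81, 9.95 and 9.87 in RAG1-/-. At D28 they read 9.20, 8.84 and 8.74 in WT and 9.44, 9.26 and 9.44 in RAG1-/-. The later WT arrays lay below the RAG1-/- arrays on both days, but the differences of 0.86 at D21 (adjusted p = 0.102) and 0.45 at D28 (adjusted p = 0.400) did not pass. By the second brightest probe the D21 difference was 1.07 and passed (adjusted p = 0.00611). Against intact WT bone, WT differed by 0.14 at D14 (−0.92 without replicates 2 and 3), by −0.97 at D21 (adjusted p = 0.0677) and by −1.05 at D28 (adjusted p = 0.0429). All WT arrays of D21 and D28 were below those of intact bone, but by this probe none of these was called at an adjusted p under 0.01. By the second brightest probe the WT falls at D21 (−1.10, adjusted p = 0.00421 in limma) and D28 (−1.17, adjusted p = 0.00261) were called.

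Such a loss of signal was rare among bright genes. Of 674 tested genes at or above the level of B2m in intact WT bone, B2m included, 17 (2.52%) fell in WT by as much as B2m or more at D3 and 19 (2.82%) at D7. The median change over these 674 genes was −0.32 at D3 and −0.28 at D7 in WT, and −0.08 and −0.05 in RAG1-/-. The genes whose 12 group means followed those of B2m most closely were Rpl31 and Rps7, which encode ribosomal proteins, and the autophagy gene Atg12, with Pearson r of 0.99, 0.99 and 0.98. Rpl31 read 4.63 and Rps7 5.07 in WT at D3, against 10.77 and 10.52 in RAG1-/-. Without WT at D3 and D7 the r of B2m over the other 10 groups was 0.77 with Rpl31, 0.80 with Rps7 and 0.73 with Atg12. The early WT arrays that carry this drop are those that stood apart as a whole, and the part of this in the B2m values was not tested.

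The heavy chains could hardly be followed. The H2-K1 probe read 4.23 to 5.30 over the 18 WT arrays and 4.31 to 4.83 over the 18 RAG1-/- arrays, with a median of 4.42 in WT and 4.51 in RAG1-/-. Both medians were below the median of all probes, 4.72, and no comparison was made. Of 20 other class I heavy chain and related genes, 16 had a probe and 7 were tested. H2-Q8 was lower in RAG1-/- at D7 (−0.97), H2-T23 was lower at D0 (−1.07) and higher at D28 (2.06), and H2-M3 was higher at D28 (1.28). Hfe, a class I-like regulator of iron uptake, was higher at D3 (0.95) and D28 (1.38). Over 7 genes and 6 days, 8 comparisons (19%) passed as higher and 2 (4.76%) as lower, where 17.2% and 12.3% did over all tested genes.

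Ubd, a ubiquitin-like protein that marks proteins for the proteasome and is induced by interferon gamma and tumour necrosis factor, was measured above the floor in intact WT bone and in no other group. Its WT arrays read 7.01, 6.93 and 7.13 at D0 and its RAG1-/- arrays 4.64, 5.08 and 4.76. From D3 to D28 the WT arrays read 4.36 to 5.13 and the RAG1-/- arrays 4.39 to 5.07. Only the 3 arrays of intact WT bone stood above all others, and the remaining 11 groups overlapped from neighbour to neighbour in the order of their means. The difference in intact bone was −2.20 ± 0.20 (adjusted p = 1.48e-09 in limma), a 4.59-fold lower intensity, and the differences of later days lay between −0.07 and 0.25 and did not pass. Since RAG1-/- lay close to the floor, this difference is limited by the floor.

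Other genes were high in the same 3 arrays. The closest to Ubd over the 12 group means were Ube2l6 (r = 0.97), which encodes an enzyme that conjugates Isg15, the erythroblast membrane gene Ermap (r = 0.94) and the carbonic anhydrase gene Car2 (r = 0.94). Ube2l6 read 7.44 ± 0.24 (SD, n = 3 arrays) in intact WT bone and 4.66 in intact RAG1-/- bone, and Ermap 8.16 and 4.55. These correlations rest on a single group: without intact WT bone they were 0.23, −0.21 and −0.15 over the other 11 groups. The mean over 7 mature B cell markers was 4.69 to 5.26 in the arrays of intact WT bone, where 6 of the 7 were above the median of all probes, and 4.53 to 4.60 in intact RAG1-/- bone, where 1 was. Only 1 of these markers, Cd79b, was bright enough to test, and it passed on no day. The part of B cells in the Ubd values was not tested. The mean over 7 erythroid markers was 10.58 to 10.79 in intact WT bone, 10.42 to 10.62 in WT at D3 and D7, and 6.11 to 6.17 in intact RAG1-/- bone.

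**Figure D5:**
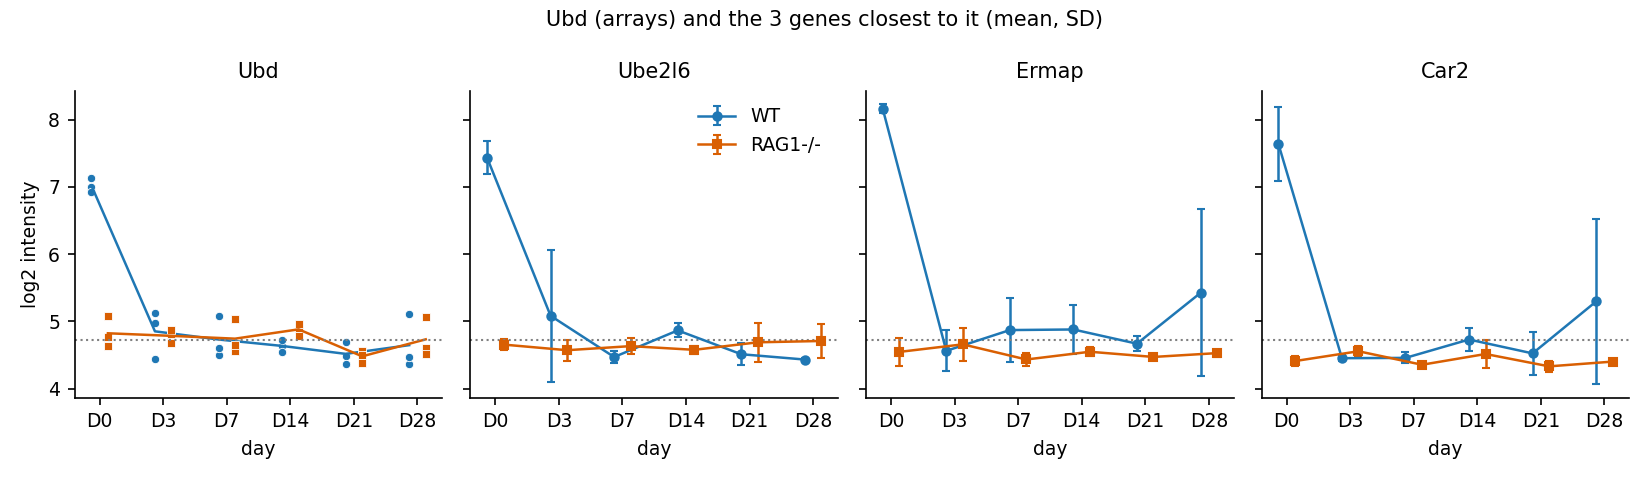
Log2 intensity (vertical axis) by day (horizontal axis) in WT (circles) and RAG1-/- (squares). The panel of Ubd has a point per array, those of Ube2l6, Ermap and Car2 the mean and SD of 3 arrays, and the dotted line is the median of all probes, 4.72. All 4 genes are high in intact WT bone, where Ubd averages 7.02 and Ermap 8.16, and near the floor in all RAG1-/- groups.

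Change after fracture was then read within each genotype, against intact bone, at an adjusted p under 0.01 and more than 2-fold. In WT, 3 of 7 members had changed at D3 (27.3% of all genes), 4 at D7 (26.2%) and 1 each at D14 (12.9%), D21 (10.1%) and D28 (9.87%). Ubd fell on all 5 days, with log2 changes between −2.50 and −2.17, and B2m fell at D3 (−4.94) and D7 (−4.60). By its second brightest probe B2m fell at D21 (−1.10) and D28 (−1.17) too. Irf1 rose at D3 (1.47 ± 0.15, adjusted p = 2.38e-09 in limma) and at D7 (1.30 ± 0.15), by its brightest probe only. Tap2 rose at D7 (1.13 ± 0.17, adjusted p = 2.11e-06), and its difference at D3 was 0.88, just under 2-fold. In RAG1-/- the only change called was in Tap2, which fell at D3 by 1.58 on the log2 scale (adjusted p = 8.28e-08), 1 of 7 members where 3.04% of all genes had changed. None of the 7 passed at D7 (2.82% of all genes), D14 (5.02%), D21 (7.88%) or D28 (4.26%) in limma, with an unadjusted p under 0.05 for 2, 1, 1 and 2 members. With no limit on fold and an adjusted p under 0.05, 6 changes in RAG1-/- were called in place of 1, of them Tap2 lower at D14 (−0.51), D21 (−0.91) and D28 (−0.72).

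The genotypes were also compared in their change from intact bone, and here (adjusted p under 0.05) a difference passed for 4 of 7 members at D3 (31.5% of all genes), 4 at D7 (28.5%), 1 at D14 (15.9%), 2 at D21 (12.7%) and 1 at D28 (13.2%). For Tap2 the change in RAG1-/- minus the change in WT was −2.46 ± 0.24 at D3, −1.58 at D7 and −0.79 at D21 (adjusted p = 0.0234 in limma). At D14 (0.26, adjusted p = 0.563) and D28 (−0.44, adjusted p = 0.262) it did not pass. For Irf1 it was −1.99 at D3 and −1.26 at D7, and for B2m 4.44 and 3.84. For Ubd it passed on all 5 days, at 2.13 to 2.44, each time with the same arrays of intact bone. Those of WT alone made its probe bright enough to test. The second brightest Irf1 probe gave 0.31 at D3 (adjusted p = 0.439) and 0.54 at D7 (adjusted p = 0.143). By the second brightest B2m probe the difference in change also passed at D21 (1.67, adjusted p = 0.00490) and D28 (1.25, adjusted p = 0.0387).

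The comparison over the 6 days is the only one whose replicates are pools of separate mice, with 6 pairs of pools. Tap2 was the 1 member of 7 called, where 4.49% of all genes were, at −1.70 ± 0.34 (SE, adjusted p = 0.0457 in limma). Its mean was lower in RAG1-/- in 6 of 6 pairs, which held for 8.01% of all genes, and the exact permutation test of the 6 differences gave a two-sided p of 0.03125, the smallest it can give. Irf1 was also lower in 6 of 6 pairs by its brightest probe, at −0.75 ± 0.29 (adjusted p = 0.119), with the same exact permutation p of 0.03125. By its second brightest probe the difference was −0.05 and did not pass, with higher RAG1-/- means at D7, D14 and D28. The permutation p-values are not adjusted over genes. Tap1 was higher in 5 of 6 pairs (0.38, adjusted p = 0.144), Psmb8 lower in 5 (−0.49, adjusted p = 0.165) and Psmb9 lower in 4 (−0.32, adjusted p = 0.350). B2m averaged 1.45 (adjusted p = 0.133) and Ubd −0.33 (adjusted p = 0.457). Without D3 and D7 the Tap2 difference was −1.11 and was not called (adjusted p = 0.200), and leaving out D0, D21, D28, D3 or D7 alone ended the call as well (adjusted p = 0.0713 to 0.146).

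Likeness between members was read over group means. Over the 12 group means the brightest Irf1 probe correlated with Tap2 at 0.89, with Psmb9 at 0.87 and with B2m at −0.92. Without WT at D3 and D7 these values were 0.91, 0.25 and 0.08 over the other 10 groups, so only that with Tap2 stayed high. Both genes had lower RAG1-/- means on all 6 days by these probes, so the value of 0.91 includes the genotype difference. No correlation within a genotype or with the second brightest Irf1 probe was computed. Tap2 and Tap1 correlated at −0.71, and at −0.54 without those groups. The genes closest to Tap2 were Ddx26b (r = 0.96), Dedd2 (0.96) and Metrn (0.96), with 0.92, 0.92 and 0.95 without them. For Irf1 they were LOC675228 (0.98), AI132487 (0.97) and Abcb9 (0.97), with 0.74, 0.79 and 0.77 without them. For Tap1 the endotoxin receptor gene Tlr4, the complement gene C1qa and Aim1 (0.93, 0.93 and 0.92) were closest. For Psmb9 they were Tmem50a, Rangap1 and Ptpn6 (0.95, 0.95 and 0.94) and for Psmb8 Olfr463, Heph and 4933425O20Rik (0.96, 0.95 and 0.94). The points of these correlations share arrays and pools within a genotype.

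Upstream of the set, 12 of 13 signalling genes were tested. Ifng, the cytokine itself, passed on no day, with differences between −0.79 and −0.06. Ifngr1, a receptor chain, was higher in RAG1-/- at D3 (1.66), D7 (1.93) and D28 (1.70), and Ifngr2, its partner, was lower at D0 (−0.74) and D7 (−1.31). Ciita, the activator of class II genes, was lower at D3 (−1.11), and the probe labelled AI451557, paired here with Nlrc5, the activator of class I genes, was higher at D7 (0.48), D21 (0.54) and D28 (0.92). Socs3, a feedback inhibitor of cytokine signalling, was higher at D0 (1.14), D3 (0.59) and D7 (1.05). Over 12 genes and 6 days, 11 comparisons (15.3%) passed as higher and 4 (5.56%) as lower, where 17.2% and 12.3% did over all tested genes.

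Of 22 further interferon gamma induced effector genes, 13 were tested. Gch1, the enzyme that starts synthesis of the nitric oxide synthase cofactor tetrahydrobiopterin, was lower in RAG1-/- on every day but D14, by 0.74 at D28 to 2.49 at D7 on the log2 scale, and over the 6 days at −1.57. Cd274, which encodes the checkpoint ligand PD-L1, was lower at D0 (−1.52) and D7 (−1.11), and the guanylate-binding protein gene Gbp2 at D0 (−0.58). Irgm1 was lower at D7 (−1.04) and D14 (−1.34), whereas its relative Irgm2, labelled Iigp2 on the array, was higher at D3 (1.55) and D7 (2.11). The adhesion molecule gene Icam1 was higher at D0 (1.03), D3 (0.86) and D28 (1.79), and Casp1 (1.48) and Igtp (1.06) were higher at D28. Cxcl9, Gbp3, Ifi47 and Indo passed on no day. Over 13 genes and 6 days, 7 comparisons (8.97%) passed as higher and 11 (14.1%) as lower, where 17.2% and 12.3% did over all tested genes.

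Markers of the cells that make interferon gamma were mostly dim. Of 13 T cell markers on the array 5 were tested, and the mean over the 13 was 4.84 to 5.53 in WT arrays and 4.92 to 5.15 in RAG1-/- arrays. Over 5 genes and 6 days, 6 comparisons (20%) passed as higher in RAG1-/- and 4 (13.3%) as lower. These shares are near the 17.2% and 12.3% over all tested genes, so the counts are not a result about T cell markers. Thy1, which is also found on stromal cells, was higher on 4 days by up to 1.76, and Cd247, a chain of the T cell receptor complex that NK cells share, was lower at D3 (−0.93) and D7 (−1.43) and higher at D21 (1.02). Cd8b1 was lower at D3 (−1.10), Cd2 was lower at D28 (−0.80) and Zap70 was higher at D7 (0.85). The mean over 9 NK cell markers was 5.32 to 5.54 in WT arrays at D3 and D7 and 4.82 to 5.03 in RAG1-/- arrays of these days. Of the 9 markers only 3 were bright enough to test, of which the perforin gene Prf1 was the brightest (8.34 over all arrays). Prf1 was lower in RAG1-/- at D0 (−0.64), D3 (−1.53) and D7 (−2.87), Klrd1 was lower at D3 (−0.54), and Nkg7 passed on no day. The early differences in Irf1, Psmb9 and Tap2 fell on D3 and D7, when 49.6% and 48.5% of all genes were called. Tap2 was lower on the other days as well. The part of T cells and NK cells in these differences was not tested.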

How the data were processed

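The log2 values were deposited by the authors, who preprocessed Illumina MouseRef-8 v2 bead arrays with beadarray and applied quantile normalization with lumi. Gene names came from the deposited probe table, in which 264 value columns could not be matched to a sample and were not used. Groups came from the sample labels. Of 25697 probes, the 12848 brighter than the median probe (4.72) were kept, and the brightest per gene was tested, giving 10291 genes. Tests used limma 3.58.1 in R 4.3.3 with 1 fit over 36 arrays and Benjamini-Hochberg adjustment over all genes. Genotypes and changes from D0 were compared within days, and the 12 pool means were compared over days with day as a block, with an exact permutation test per gene. Scripts were tested on simulated data. All 9 genes are described, and the 3 genes most alike each tested member by Pearson correlation over group means are named. From the other lists, up to 4 genes that passed in a direction and comparison were named, and genes that did not pass where they were counted. Members and lists were chosen with earlier results of these data known, and the second Irf1 and B2m probes after seeing the data. Alternatives changed the filter, probe, scaling, test, threshold, block and arrays used. Number of arrays limits the precision. Of the signalling list, 1 gene is counted but not reported singly here.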

Additional observations from a re-analysis of the deposited data

Results flagged for a closer look

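Some changes from intact bone differed between the genotypes by the test of the difference itself (limma, adjusted p under 0.05). Each value is the log2 change in RAG1-/- minus that in WT, over 3 technical arrays of each pool. Ubd gave 2.13 at D3, 2.21 at D7, 2.44 at D14, 2.16 at D21 and 2.28 at D28, all against the same arrays of intact bone. Only through those of WT was its probe bright enough to test. Tap2 gave −2.46 at D3, −1.58 at D7 and −0.79 at D21. Irf1 gave −1.99 at D3 and −1.26 at D7 by its brightest probe, and its second brightest probe gave 0.31 and 0.54. B2m gave 4.44 at D3 and 3.84 at D7 by its brightest probe, and by its second brightest probe 1.67 at D21 and 1.25 at D28 passed too.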

How the results depend on the processing

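Over 2911 recomputed values of single members, 2827 kept their side of the threshold (with the same direction where called), 40 newly passed, 40 no longer passed and 4 reversed. The 4 reversed values came from the second brightest Irf1 probe, at 0.11 for the D7 genotype difference, −0.24 for WT at D3 against D0, and 0.31 and 0.54 for the difference in change at D3 and D7. The cause was not tested. Members called over the 6 days numbered 1, but 4 with all 36 arrays and the pool as a random block, and 0 with no filter or without D0, D21, D28, D3, D7, or D3 and D7. Members changed in RAG1-/- numbered 1, but 6 at an adjusted p under 0.05 with no limit on fold, which loosens both limits. Genotype calls went from 2 to 1 at D0 and D28 over 2-fold, from 2 to 1 at D28 with a filter at the 60th percentile, from 2 to 1 at D21 with no filter or without WT D14 replicates 2 and 3, and from 1 to 0 at D14 over 2-fold, with only the 2 groups in the fit or by the methods' t-test. Leaving out 1 array at a time gave 2 to 2 calls at D0, 3 to 5 at D3, 4 to 6 at D7, 0 to 1 at D14, 1 to 2 at D21, 2 to 2 at D28, 0 to 1 over the 6 days, 10 to 11 changes in WT, 1 to 2 in RAG1-/- and 11 to 12 differences in change.

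Replicate numbers did not pair the arrays: deviations of same-numbered arrays correlated at −0.034 to 0.040 over 18 pairs. With the replicate block, Psmb8 at D7 (−1.01) was called (adjusted p = 0.0446), and no count moved by more than 1.5 times. Signal near the floor limits Tap1, Ubd, H2-K1, many arrays of Psmb8 and B2m in WT at D3 and D7.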
